A study of Mus musculus with 4 samples.

Results

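The lysosomal gene set described here comprised 42 genes, chosen by symbol as known components of the lysosome and its proton pump, out of 23735 loci in the deposited table. It held 28 genes for hydrolases, their activators, membrane proteins, progranulin and the transcription factor TFEB, and 14 genes for subunits of the vacuolar H+-ATPase (V-ATPase), and all 42 were found in the table once each. Their RNA was measured in cultured peritoneal macrophages of C57BL/6 mice of 6 weeks, in 2 libraries labelled ApoE-/-/Ch25h-/- (Ch25h_KO) and 2 libraries labelled ApoE-/-/Ch25h+/+ (Ch25h_WT). Both groups were labelled as lacking apolipoprotein E. Every mouse had received 3% thioglycolate, a sterile irritant that recruits macrophages into the peritoneal cavity, 3 days before collection, and the cells were then cultured in DMEM with 10% serum. The labels give 12 mice per group and do not say how mice were pooled into libraries, so the p-values below reflect how far these libraries scatter, which may be technical in part.

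Lysosomes degrade the lipoproteins, glycolipids, glycans and proteins that macrophages take up, and the V-ATPase acidifies them so that the hydrolases can work. TFEB and its relatives of the MiT/TFE family switch many lysosomal genes on together by binding E-box motifs in their promoters. Ch25h encodes cholesterol 25-hydroxylase, which makes 25-hydroxycholesterol, an oxysterol that signals sterol content, and lysosomes release the cholesterol of ingested lipoproteins. The comparison asked whether transcripts of this degradative compartment differ when Ch25h is deleted on the ApoE-/- background.

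Between 13813 and 13970 loci were above 0 in each library in FPKM, a unit that scales fragments by transcript length and by the library's mapped total. Low values gave relative depths of 0.824 and 0.770 in Ch25h_KO replicates 1 and 2 and 1 and 0.800 in Ch25h_WT replicates 1 and 2. Ch25h itself was 4.25 and 5.53 FPKM in Ch25h_KO libraries, against 63.3 and 65.3 FPKM in Ch25h_WT libraries. Apoe was 3683 and 3373 FPKM in Ch25h_KO libraries, against 614 and 610 FPKM in Ch25h_WT libraries, although all 4 libraries were labelled ApoE-/-. At unadjusted p under 0.05 with limma, 20.9% of all loci differed (9.38% higher and 11.5% lower), and the marker counts below stand against these shares. Of the 8 macrophage markers tested, Emr1 (F4/80), Csf1r, Itgam and Cd68 lay between 274 and 587 FPKM in every library, Fcgr1 and Mertk between 4.22 and 27.4 FPKM, and Cd14 and Lyz2 at 5178 FPKM or more. Cd14 and Fcgr1 were higher at unadjusted p under 0.05 and 0 were lower, with Cd14 at 6870 and 6751 FPKM in Ch25h_KO libraries, against 5178 and 5288 FPKM in Ch25h_WT libraries. Emr1 and Csf1r lay below in both Ch25h_KO libraries without overlap, as did 30.3% of all loci. Of 8 markers of resident peritoneal macrophages, Timd4 and Icam2 were higher and Cd5l and Vsig4 lower at unadjusted p under 0.05. The log2 change was above 0 for 4 of the 8 and below 0 for 4. The 8 summed to 2564 and 2649 FPKM in Ch25h_KO libraries, against 2700.3 and 2775 FPKM in Ch25h_WT libraries. Prg4, at 1218 FPKM or more with overlap, was the largest part of this sum. Cd5l was 495 and 515 FPKM in Ch25h_KO libraries, against 661 and 666 FPKM in Ch25h_WT libraries. B cell markers summed to 285 and 300.3 FPKM in Ch25h_KO libraries and 317 and 321 FPKM in Ch25h_WT libraries. Mast cell and basophil markers summed to 156 and 159 FPKM in Ch25h_KO libraries and 223 and 229 FPKM in Ch25h_WT libraries, and 5 of 6 tested were lower at unadjusted p under 0.05. Neutrophil markers summed to 117 and 117 FPKM in Ch25h_KO libraries and 72.3 and 83.1 FPKM in Ch25h_WT libraries. Almost all of it was S100a8 and S100a9. Mpo and Elane were listed at 0 in both Ch25h_KO libraries and at most 0.125 FPKM in Ch25h_WT libraries. Cxcr2 was 0.492 and 0.428 FPKM in Ch25h_KO libraries, against 0.507 and 0.665 FPKM in Ch25h_WT libraries. Camp was 0.880 and 0.471 FPKM in Ch25h_KO libraries, against 0.906 and 1.36 FPKM in Ch25h_WT libraries. Ngp lay above and Retnlg overlapped. All except S100a8 and S100a9 had a mean under 1 FPKM, too low to be tested. Dendritic cell markers, mostly Cd209a, summed to 29.3 and 25.8 FPKM in Ch25h_KO libraries and 22.6 and 20.8 FPKM in Ch25h_WT libraries. Cd209a was higher at unadjusted p under 0.05. Flt3 lay below, at 0.202 and 0.298 FPKM in Ch25h_KO libraries, against 0.584 and 0.313 FPKM in Ch25h_WT libraries. Zbtb46 and Itgae overlapped, and Xcr1, at most 0.206 FPKM, lay above. Mesothelial and fibroblast markers were low, at sums of 4.25 and 3.34 FPKM in Ch25h_KO libraries and 1.31 and 1.21 FPKM in Ch25h_WT libraries. Dcn, the only gene of this list tested, was higher at unadjusted p under 0.05. It was 2.47 and 1.53 FPKM in Ch25h_KO libraries, against 0.712 and 0.452 FPKM in Ch25h_WT libraries. Col1a1, Col3a1, Pdgfra and Krt19, each under 1 FPKM, also lay above, and Msln and Upk3b overlapped. T cell marker sums were also low and overlapped. The part of these cells in the values below was not tested, and in bulk RNA fewer cells of a type and less RNA per cell cannot be told apart.

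Transcripts of lysosomal enzymes, membrane proteins and the V-ATPase stood at similar levels without and with Ch25h, and no tested member differed by more than 1.5-fold. Of 41 members tested, 0 passed the threshold (limma, Benjamini-Hochberg adjusted p under 0.05 over all loci), where 44 of 10074 loci (0.437%) passed. The smallest adjusted p of any member was 0.172. At unadjusted p under 0.05, 6 of 41 members differed, namely Naglu, Galns, Cln3, Atp6v1f and Atp6v1g1 on the higher side and Psap on the lower side. This is 14.6% of the members, against a background of 20.9% over all loci (9.38% higher and 11.5% lower). With 1 library left out, the 6 became 1 without Ch25h_KO replicate 1, 2 without Ch25h_KO replicate 2, 2 without Ch25h_WT replicate 1 and 0 without Ch25h_WT replicate 2. Log2 changes of the members (Ch25h_KO minus Ch25h_WT on the log2(FPKM + 1) scale) ran from -0.21 for Gm2a to 0.20 for Atp6v1f, with 27 above 0 and 14 below (30 and 11 after median ratio scaling, 21 and 20 after scaling to the total FPKM without Saa3). The median size of the change, without its sign, was 0.062 for the members and 0.095 for all loci. The 95% interval of all 41 tested members lay within 1.5-fold in either direction, as it did for 93.2% of all loci.

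**Figure D1:**
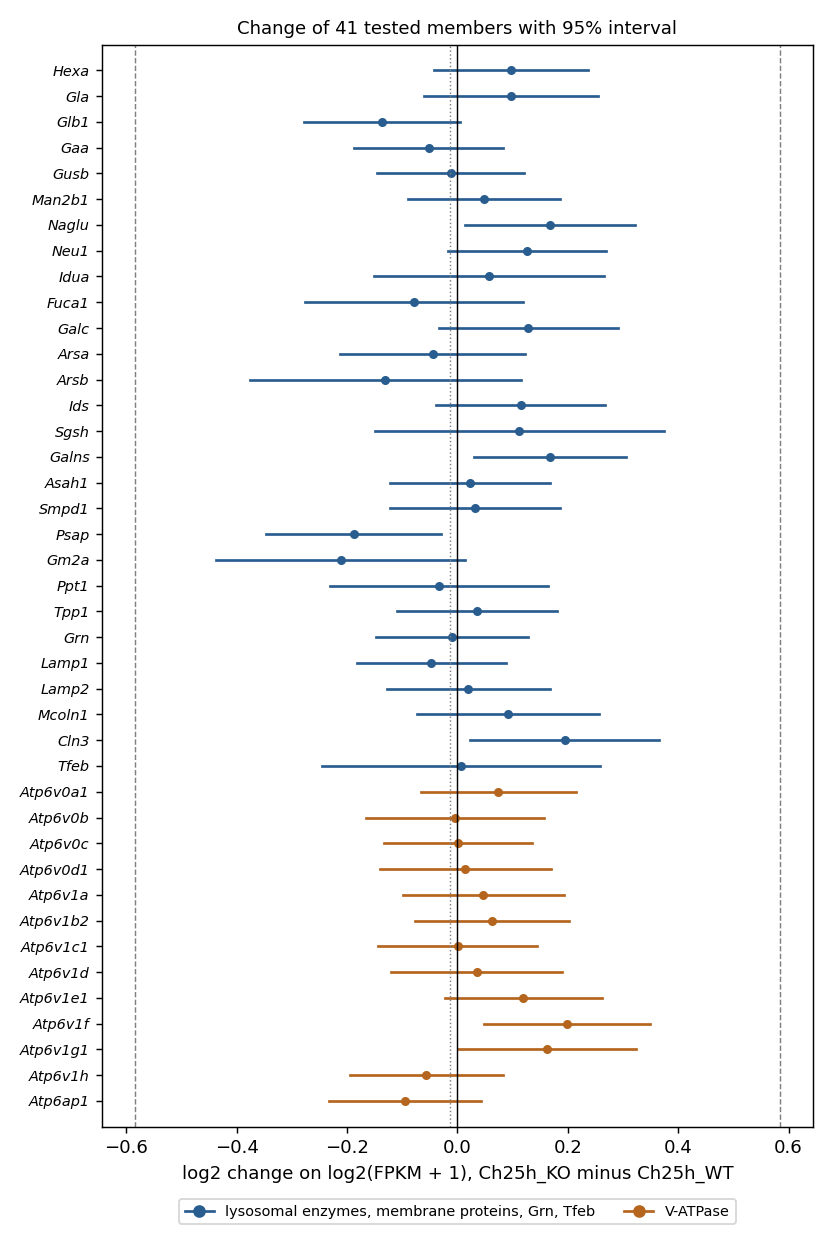
Log2 change of each tested member (x axis, Ch25h_KO minus Ch25h_WT on log2(FPKM + 1)) with its 95% interval from limma as a line. Dashed lines mark 1.5-fold, the dotted line marks the median of all 10074 loci at -0.014, and all 41 intervals lie inside the dashed lines.

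Counting the 2 kinds of genes apart gave similar pictures. Of the 28 enzymes, membrane proteins, progranulin and TFEB, 0 passed, 3 were higher and 1 was lower at unadjusted p under 0.05 with limma, and their median log2 change was 0.027. Of the 13 tested V-ATPase subunits, 0 passed, 2 were higher and 0 lower at unadjusted p under 0.05 with limma, and their median log2 change was 0.035. The median over all loci was -0.014. With libraries rescaled to the total FPKM without Saa3 the medians were 0.0030 and 0.010, against -0.036 over all loci, and with median ratio scaling 0.043 and 0.052, against 0.00076. Without Ch25h_WT replicate 1 the median of the 28 was 0.016. Both Ch25h_KO libraries lay above both Ch25h_WT libraries for 10 of the 28 and 6 of the 13, where the background was 23.4%. They lay below for 6 of the 28 and 2 of the 13, where the background was 30.3%, so for 17 of the 41 the groups overlapped, and 53.7% of all loci did not overlap.

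**Figure D2:**
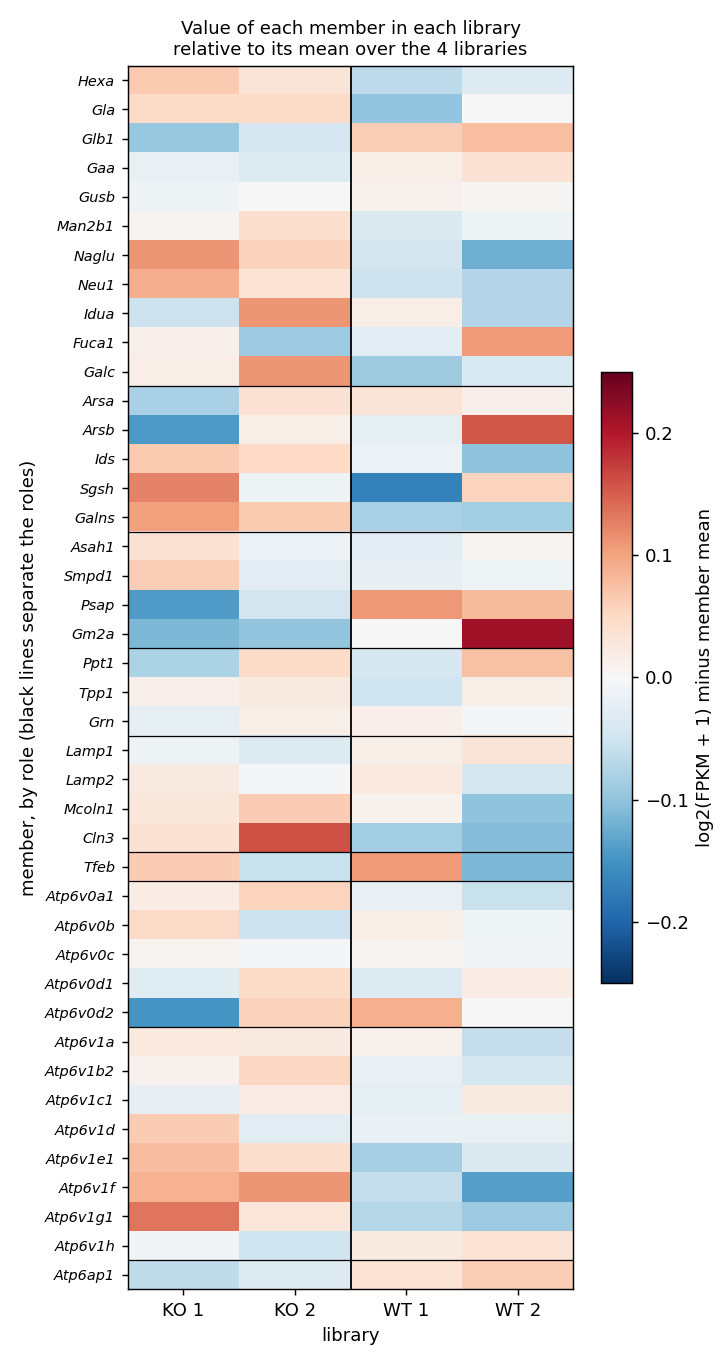
Each row is a member, each column a library (Ch25h_KO replicates left of Ch25h_WT replicates), and colour gives log2(FPKM + 1) minus the mean of that member over the 4 libraries. Naglu, Galns, Cln3 and Atp6v1f are red in both Ch25h_KO libraries and Psap, Glb1 and Atp6ap1 are blue there, while many rows differ as much between replicates as between groups.

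Promoters of the members were examined for the E-box motif of the TFEB family. Such motifs are known from lysosomal genes and the members were chosen as such. Their share among the members is therefore a description and not an independent result. The E-box core of TFEB-family sites was searched as TCACGTG on either strand, in 300 bases of RefSeq promoter (GRCm38.p6, 250 before to 50 after the annotated gene start). The palindrome TCACGTGA, in which a match and its reverse complement overlap, was counted as 1 site. Of 35 members with a promoter in the RefSeq table, 12 (34.3%) held it, against 4.29% of all 27025 symbols with a promoter and 7.35% of the 7688 symbols that were tested here. The shorter core CACGTG, which is part of it, was held by the same share of members, 34.3%, and by 12.4% of the tested symbols. It was found in 9 of 26 enzyme and membrane protein promoters (34.6%) and in 3 of 9 V-ATPase promoters (33.3%). Galns, Asah1, Atp6v0d2, Atp6v1b2, Atp6v1c1, Atp6v1g1 and Atp6v1h had no entry. A match is a description of the sequence and not a measured site.

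The stretches below are shown because they hold the shared motif in members whose transcripts lay on either side of no change. Each is 80 bases of the gene's own strand, 5′ to 3′, from RefSeq GRCm38.p6, with the motif in capitals. The window of Lamp1 is chr8:13159081-13159160 (plus strand), that of Mcoln1 chr8:3500439-3500518 (plus), that of Cln3 chr7:126583317-126583396 (minus), that of Naglu chr11:101070014-101070093 (plus), that of Glb1 chr9:114400998-114401077 (plus) and that of Atp6v0b chr4:117887330-117887409 (minus).
Lamp1: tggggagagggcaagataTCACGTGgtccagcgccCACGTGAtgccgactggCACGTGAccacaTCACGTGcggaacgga
Mcoln1: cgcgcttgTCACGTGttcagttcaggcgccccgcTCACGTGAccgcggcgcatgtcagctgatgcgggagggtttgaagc
Cln3: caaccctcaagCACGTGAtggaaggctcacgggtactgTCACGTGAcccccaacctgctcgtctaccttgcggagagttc
Naglu: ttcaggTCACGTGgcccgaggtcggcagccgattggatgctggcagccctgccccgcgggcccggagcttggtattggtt
Glb1: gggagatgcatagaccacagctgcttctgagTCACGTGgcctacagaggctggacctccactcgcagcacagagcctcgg
Atp6v0b: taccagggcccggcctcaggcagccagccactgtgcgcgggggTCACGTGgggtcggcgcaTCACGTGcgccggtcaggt

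Lamp1 held 4 such motifs, the most of any member, and Mcoln1, Cln3, Gla and Atp6v0b held 2 each. The 12 members with the motif had a median log2 change of 0.030, with 7 higher and 5 lower, and the 23 members without it had a median of 0.032, with 15 higher and 8 lower. Naglu and Glb1, each with 1 motif close to the start, lay on opposite sides, at log2 changes of 0.17 and -0.14. With libraries rescaled to the total FPKM without Saa3 these counts were 6 higher and 6 lower with the motif, and 12 higher and 11 lower without it, at medians of 0.0051 and 0.0082. With median ratio scaling both medians were 0.047.

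**Figure D3:**
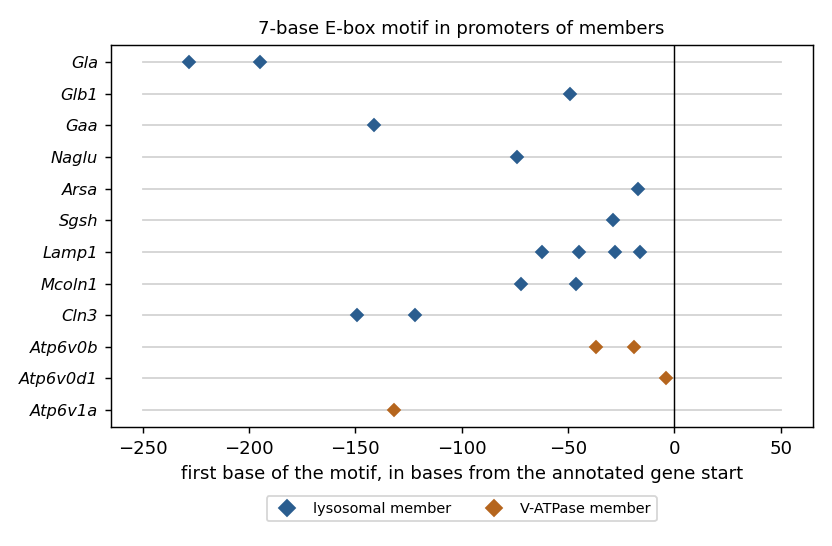
Position of the first base of each 7-base E-box motif (x axis, bases from the annotated gene start at 0) in the promoters of the 12 members that hold it. All lie before the start, and Lamp1 has 4 of them within its last 62 bases.

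The glycosidases, which trim sugars from glycans and glycolipids, were 11 genes with mean levels from 6.82 FPKM (Idua, which cleaves iduronic acid from heparan and dermatan sulfate) to 332 FPKM (Hexa, which takes part in the breakdown of GM2 ganglioside). Naglu, which removes N-acetylglucosamine from heparan sulfate, was 29.6 and 28.5 FPKM in Ch25h_KO libraries, against 26.5 and 25.1 FPKM in Ch25h_WT libraries. Both Ch25h_KO libraries were above both Ch25h_WT libraries, and the mean was 1.13 times as high (95% interval 1.01 to 1.25 on the FPKM + 1 scale, limma adjusted p = 0.219). Glb1, the beta-galactosidase that removes terminal galactose from GM1 ganglioside, was 142 and 147 FPKM in Ch25h_KO libraries, against 159 and 160.0 FPKM in Ch25h_WT libraries. The groups did not overlap, and the mean was 0.909 times that of Ch25h_WT (limma adjusted p = 0.249). Glb1 shares its locus in the table with Tmppe, a gene nested in it, and the values do not separate them.

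Hexa was 347 and 339 FPKM in Ch25h_KO libraries, against 317 and 324 FPKM in Ch25h_WT libraries, a ratio of means of 1.07. Neu1, the sialidase, was 66.0 and 63.4 FPKM in Ch25h_KO libraries, against 59.6 and 58.7 FPKM in Ch25h_WT libraries, a ratio of 1.09. Galc, which breaks down galactosylceramide, stood at a ratio of 1.10 and Gla, the alpha-galactosidase that degrades globotriaosylceramide, at 1.07. In all 4 of these genes the Ch25h_KO libraries lay above the Ch25h_WT libraries, with limma adjusted p between 0.284 and 0.418. Of the 11 glycosidases, 6 lay above and 3 below without overlap, where 23.4% and 30.3% of all loci did. Man2b1 was also among those above, and Gaa and Gusb among those below. Man2b1 (lysosomal alpha-mannosidase), Gaa (which degrades lysosomal glycogen), Gusb (beta-glucuronidase), Idua and Fuca1 (alpha-fucosidase) had ratios between 0.944 and 1.05. Gusb was the flattest of the glycosidases, at 102 and 103 FPKM in Ch25h_KO libraries and 104 and 103 FPKM in Ch25h_WT libraries.

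Sulfatases remove sulfate groups from glycosaminoglycans and sulfatides, and were low here, with 5 genes at means of 3.04 to 14.2 FPKM and a median of 4.41 FPKM. Galns, which acts on keratan sulfate and chondroitin 6-sulfate, was 15.1 and 14.7 FPKM in Ch25h_KO libraries, against 13.2 and 13.1 FPKM in Ch25h_WT libraries. The Ch25h_KO libraries were both above, with a mean 1.13 times as high (95% interval 1.02 to 1.24 on the FPKM + 1 scale, limma adjusted p = 0.189). Ids (iduronate sulfatase) was 4.65 and 4.59 FPKM in Ch25h_KO libraries, against 4.35 and 4.04 FPKM in Ch25h_WT libraries. For Arsa, which acts on sulfatide, Arsb and Sgsh (the heparan N-sulfatase) the groups overlapped. Arsb and Sgsh, near 3 FPKM, had some of the widest intervals of the set, from 0.770 to 1.08 and from 0.901 to 1.30 on the FPKM + 1 scale.

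Sphingolipid breakdown needs enzymes and small activator proteins that lift lipids out of the membrane, and both activator genes of the set were on the lower side. Psap, the precursor of the saposins, was 1082 and 1157 FPKM in Ch25h_KO libraries, against 1288 and 1262 FPKM in Ch25h_WT libraries. Both Ch25h_KO libraries lay below both Ch25h_WT libraries. Averaged over the 4 libraries it had the highest level of the 42 members, but in Ch25h_KO libraries its mean was level with that of Atp6v0c (1118 FPKM). Its mean was 1119 ± 53.1 FPKM in Ch25h_KO and 1275 ± 18.5 FPKM in Ch25h_WT (SD, n = 2 libraries each), with a log2 difference of -0.19 (SE 0.061; limma adjusted p = 0.197). With limma's trend and robust options, which let the spread depend on the level, Psap passed at adjusted p = 0.0269, where 7.8% of all loci passed, and over the other alternatives its adjusted p ran between 0.131 and 0.438. Gm2a, the activator that lifts GM2 ganglioside out of the membrane for its breakdown, was 36.8 and 37.2 FPKM in Ch25h_KO libraries, against 39.9 and 46.3 FPKM in Ch25h_WT libraries. Its ratio of 0.858 was the lowest of the tested members, and the Ch25h_WT libraries differed from each other by more than the nearer one differed from Ch25h_KO (limma adjusted p = 0.258).

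Asah1 and Smpd1, the lipid hydrolases grouped here apart from the glycosidases and sulfatases, overlapped between groups. Asah1, the acid ceramidase, was 87.1 and 83.9 FPKM in Ch25h_KO libraries and 83.1 and 85.2 FPKM in Ch25h_WT libraries. Smpd1, the acid sphingomyelinase, was 12.8 and 12.0 FPKM in Ch25h_KO libraries and 12.1 and 12.1 FPKM in Ch25h_WT libraries. Their ratios of means were 1.02 and 1.02, with 95% intervals of 0.919 to 1.12 and 0.918 to 1.14 on the FPKM + 1 scale.

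The enzymes that process proteins, and progranulin, stood at nearly equal levels. Grn, which encodes progranulin, a precursor of lysosomal granulins, was 765 and 785 FPKM in Ch25h_KO libraries, against 784 and 776 FPKM in Ch25h_WT libraries. Tpp1, a tripeptidyl peptidase, and Ppt1, which removes palmitate from proteins, had ratios of 1.02 and 0.977. The groups overlapped for all 3 genes, and limma adjusted p lay between 0.753 and 0.937.

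Of the membrane proteins, Lamp1 and Lamp2, the heavily glycosylated proteins that line the lysosome, were among the most abundant members. Lamp1 was 668 and 659 FPKM in Ch25h_KO libraries, against 681 and 690.1 FPKM in Ch25h_WT libraries, with no overlap and a ratio of 0.968 (limma adjusted p = 0.642). Lamp2 was 291 and 286 FPKM in Ch25h_KO libraries, against 292 and 278 FPKM in Ch25h_WT libraries, and the groups overlapped. Cln3, a multi-pass membrane protein mutated in juvenile Batten disease, was 44.9 and 49.0 FPKM in Ch25h_KO libraries, against 41.2 and 40.5 FPKM in Ch25h_WT libraries. Both Ch25h_KO libraries were above, and its ratio of 1.15 was the highest of all tested members (95% interval 1.02 to 1.29 on the FPKM + 1 scale, limma adjusted p = 0.206). Mcoln1, the calcium-releasing channel TRPML1, was 19.6 and 20.1 FPKM in Ch25h_KO libraries, against 19.3 and 17.8 FPKM in Ch25h_WT libraries. Tfeb was 7.72 and 7.02 FPKM in Ch25h_KO libraries, against 7.98 and 6.72 FPKM in Ch25h_WT libraries, and its replicates differed more than its groups.

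**Figure D4:**
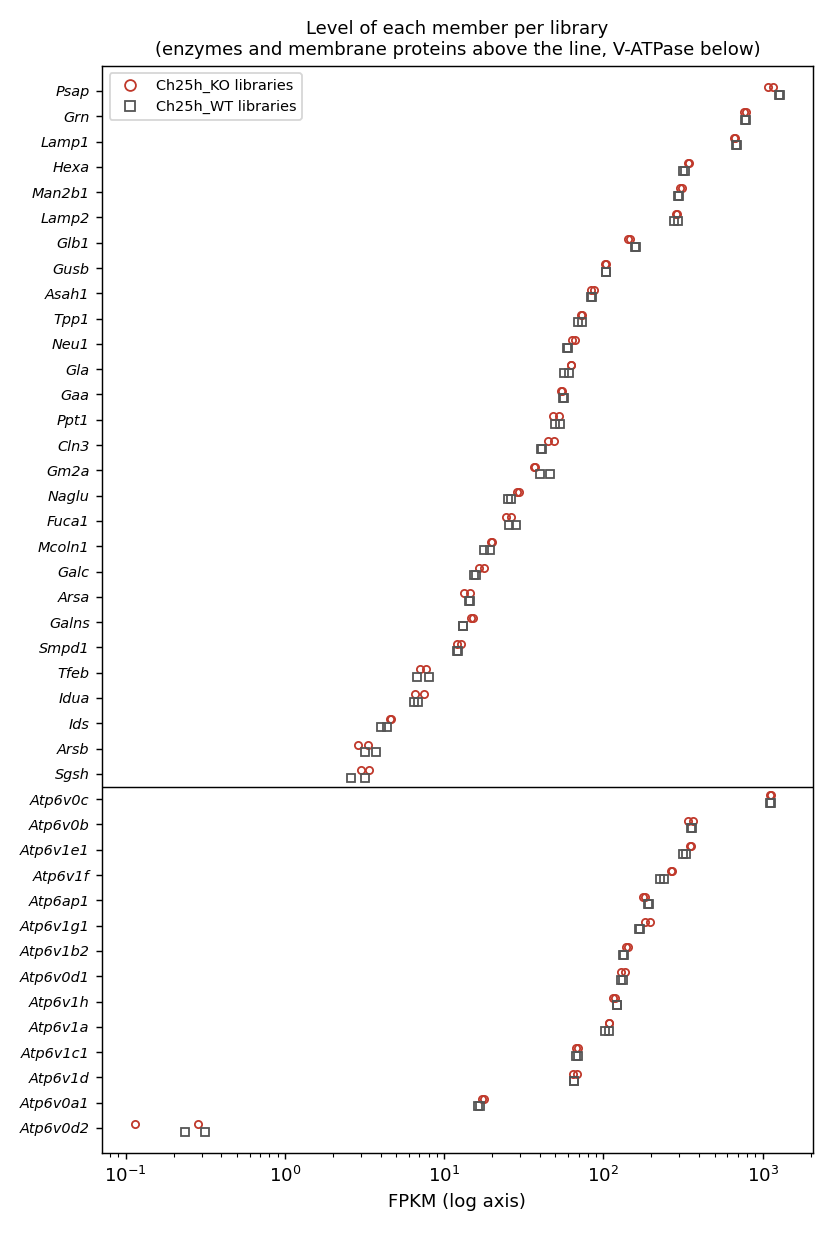
FPKM of each member in each library on a log axis, with Ch25h_KO libraries as circles above Ch25h_WT libraries as squares in each row, enzymes and membrane proteins above the line and V-ATPase subunits below it. Levels span from about 0.1 FPKM for Atp6v0d2 to at least 1082 FPKM for Psap and Atp6v0c. The groups lie close together in every row except that of Atp6v0d2, whose libraries are spread apart at a low level.

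The V-ATPase consists of a membrane-bound V0 sector, through which protons pass, and a cytosolic V1 sector, which hydrolyses ATP to drive it. Its 13 tested subunits had a median level of 137 FPKM, against 47.4 FPKM for the 28 other members and 11.1 FPKM for all tested loci. Atp6v0c, the subunit that makes up most of the proton-carrying ring and is present in many copies per pump, was 1122 and 1114 FPKM in Ch25h_KO libraries, against 1123 and 1111 FPKM in Ch25h_WT libraries. The 2 groups overlapped with a ratio of 1.00 (95% interval 0.912 to 1.10 on the FPKM + 1 scale). This locus also carries the symbol Atp6v0c-ps2, a pseudogene, so a share of reads from near-identical copies is uncertain. Atp6v0b, another ring subunit, was 367 and 342 FPKM in Ch25h_KO libraries, against 358 and 352 FPKM in Ch25h_WT libraries.

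The other V0 genes were also near a ratio of 1. Atp6v0d1, the widely expressed subunit that couples the ring to the central stalk, was 129 and 136 FPKM in Ch25h_KO libraries, against 128 and 133 FPKM in Ch25h_WT libraries. Atp6v0a1, one of several forms of the a subunit that guides protons through the membrane, was 17.2 and 17.7 FPKM in Ch25h_KO libraries, against 16.7 and 16.3 FPKM in Ch25h_WT libraries. Tcirg1, which encodes the a3 form, was the dominant a subunit gene here at 106 and 101 FPKM in Ch25h_KO libraries, against 102 and 97.0 FPKM in Ch25h_WT libraries.

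Atp6v0d2, the d subunit form known from osteoclasts and fusing macrophages, was the single member left out of the test, because its mean of 0.236 FPKM was under the filter of 1 FPKM. It was 0.114 and 0.284 FPKM in Ch25h_KO libraries, against 0.313 and 0.235 FPKM in Ch25h_WT libraries. After scaling by relative depth these values stood at 3 and 7 times a common value in Ch25h_KO libraries and 10 and 6 times that value in Ch25h_WT libraries. If that value is 1 fragment, the gene rested on a handful of fragments per library, and a difference was not detectable at this depth.

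In the V1 sector, 7 of 8 genes had a positive log2 change (6 of 8 with libraries rescaled to the total FPKM without Saa3), 5 of them with both Ch25h_KO libraries above both Ch25h_WT libraries (23.4% of all loci), and 2 were higher at unadjusted p under 0.05 (9.38% of all loci). Atp6v1f, a small subunit of the central stalk, was 266 and 271 FPKM in Ch25h_KO libraries, against 240.4 and 228 FPKM in Ch25h_WT libraries. Its log2 change was 0.20 (SE 0.057, limma adjusted p = 0.172), with a ratio of means of 1.15. It passed with limma's trend and robust options (adjusted p = 0.0209), and over the other alternatives its adjusted p ran between 0.110 and 0.456. Atp6v1g1, part of the peripheral stalks, was 195 and 181 FPKM in Ch25h_KO libraries, against 169 and 167 FPKM in Ch25h_WT libraries, a ratio of 1.12 (limma adjusted p = 0.237). Its stalk partner Atp6v1e1 was 355 and 347 FPKM in Ch25h_KO libraries, against 318 and 328 FPKM in Ch25h_WT libraries, a ratio of 1.09 (limma adjusted p = 0.298).

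The catalytic and regulatory V1 subunits were flatter. Atp6v1a, which carries the ATP-hydrolysing sites, and Atp6v1b2, its partner in the catalytic head, had ratios of 1.03 and 1.04. Atp6v1c1, which takes part in the reversible assembly of the 2 sectors, was 67.6 and 69.5 FPKM in Ch25h_KO libraries, against 67.4 and 69.7 FPKM in Ch25h_WT libraries. Atp6v1d, the central stalk shaft, had a ratio of 1.03. Atp6v1h, a regulatory subunit, was 119 and 115 FPKM in Ch25h_KO libraries, against 121 and 122 FPKM in Ch25h_WT libraries, with no overlap and a ratio of 0.962. Atp6ap1, an accessory subunit of the V0 sector, was 178 and 182 FPKM in Ch25h_KO libraries, against 191 and 194 FPKM in Ch25h_WT libraries, a ratio of 0.936 (limma adjusted p = 0.369).

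Summed over its 8 genes, the V1 sector held 1319 and 1299 FPKM in Ch25h_KO libraries, against 1224 and 1215 FPKM in Ch25h_WT libraries. The 5 V0 genes summed to 1635 and 1609 FPKM in Ch25h_KO libraries, against 1627 and 1613 FPKM in Ch25h_WT libraries. The V1 sums did not overlap and the V0 sums did, but the difference between the sectors was not tested. Relative to the mean FPKM of Atp6v0d1, whose product is a single copy in each pump, Atp6v0c stood at 8.46 in Ch25h_KO and 8.54 in Ch25h_WT libraries. The like ratio for Atp6v1e1 was 2.66 in Ch25h_KO and 2.47 in Ch25h_WT libraries, and for Atp6v1a 0.825 in Ch25h_KO and 0.807 in Ch25h_WT libraries. By mean FPKM the order of the 14 subunit genes was the same in both genotypes except that Atp6v1g1 stood above Atp6ap1 in Ch25h_KO and below it in Ch25h_WT libraries.

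Other genes of the pathway were read from 5 lists of 126 genes, and 112 of their loci were tested. Rnaset2b was counted at more than 1 locus. None of them passed (limma, adjusted p under 0.05, smallest 0.10), and 11 were higher and 9 lower at unadjusted p under 0.05, or 17.9% against the background of 20.9%. With limma's trend and robust options, 13 of the 112 passed, where 7.8% of all loci passed. The 7 tested genes of other V-ATPase subunits and assembly factors held 1 at unadjusted p under 0.05, Vma21, which chaperones V0 assembly, at 5.58 and 5.08 FPKM in Ch25h_KO libraries, against 4.30 and 4.25 FPKM in Ch25h_WT libraries (limma adjusted p = 0.135). Atp6v1b1, Atp6v1e2 and Atp6v1g3, forms known from kidney, testis and other tissues, were listed at 0 in all 4 libraries. Atp6ap2, the other accessory subunit, was 124 and 119.8 FPKM in Ch25h_KO libraries, against 121 and 120.2 FPKM in Ch25h_WT libraries.

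Among 32 loci of other hydrolases and related proteins, 3 were higher and 3 lower at unadjusted p under 0.05, and 0 passed. The 3 and 3 together are 18.75%, against 20.9% of all loci. On the higher side were Lyz1, a lysozyme gene, with 2243 and 2271 FPKM in Ch25h_KO libraries, against 1846 and 1825 FPKM in Ch25h_WT libraries, and Smpdl3b, a relative of acid sphingomyelinase, with a ratio of 1.20. Lyz1 is near-identical to Lyz2, so its level is uncertain. On the lower side were Acp2, the lysosomal acid phosphatase, with 31.0 and 30.6 FPKM in Ch25h_KO libraries, against 36.9 and 37.2 FPKM in Ch25h_WT libraries, and Hyal2, a hyaluronidase, with a ratio of 0.863. Limma adjusted p of these 4 lay between 0.102 and 0.233.

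Among 32 tested other membrane proteins and transporters, 5 were higher and 3 lower at unadjusted p under 0.05, and 0 passed. The 5 and 3 together are 25%, against 20.9% of all loci. Scarb2 (LIMP-2), an abundant protein of the lysosomal membrane, was 90.0 and 90.9 FPKM in Ch25h_KO libraries, against 111 and 114 FPKM in Ch25h_WT libraries (limma adjusted p = 0.10). Ctns, the cystine exporter, was 12.5 and 13.6 FPKM in Ch25h_KO libraries, against 10.4 and 9.81 FPKM in Ch25h_WT libraries (limma adjusted p = 0.115), and Mcoln2, a TRPML channel of immune cells, was 45.1 and 44.6 FPKM in Ch25h_KO libraries, against 38.0 and 36.9 FPKM in Ch25h_WT libraries (limma adjusted p = 0.116).

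Of 23 tested MiT/TFE factors and genes of mTORC1 control at the lysosome, 2 were higher and 1 lower at unadjusted p under 0.05. This is 13.0%, against 20.9% of all loci. Tfec, a TFEB relative expressed in macrophages, was 32.9 and 33.6 FPKM in Ch25h_KO libraries, against 39.4 and 42.3 FPKM in Ch25h_WT libraries (limma adjusted p = 0.118). Flcn, which acts on the Rag GTPases, was 37.7 and 37.0 FPKM in Ch25h_KO libraries, against 32.1 and 32.6 FPKM in Ch25h_WT libraries (limma adjusted p = 0.146), and Lamtor3, a scaffold subunit at the lysosome, stood at a ratio of 1.12. Tfe3 and Mitf had ratios of 1.01 and 0.912, with overlap between the groups.

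Mannose 6-phosphate tags steer new hydrolases to the lysosome, and 18 genes of tagging and sorting were tested. At unadjusted p under 0.05 with limma, 0 were higher and 2 lower, or 11.1% against 20.9% of all loci. Igf2r, the large mannose 6-phosphate receptor, was 25.4 and 28.4 FPKM in Ch25h_KO libraries, against 33.7 and 33.8 FPKM in Ch25h_WT libraries, a ratio of 0.796 (limma adjusted p = 0.125). Sorl1, a sorting receptor of the same transport route, was 5.63 and 6.21 FPKM in Ch25h_KO libraries, against 8.27 and 7.72 FPKM in Ch25h_WT libraries, a ratio of 0.740 (limma adjusted p = 0.110). M6pr, the small mannose 6-phosphate receptor, was 188 and 203 FPKM in Ch25h_KO libraries, against 199 and 205 FPKM in Ch25h_WT libraries, with overlap. Igf2r and Sorl1 had larger log2 differences than any of the 41 tested hydrolase, membrane protein or pump genes, and neither passed. The same held for several genes of the other lists, among them Scarb2, Ctns, Lyz1 and Tfec.

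**Figure D5:**
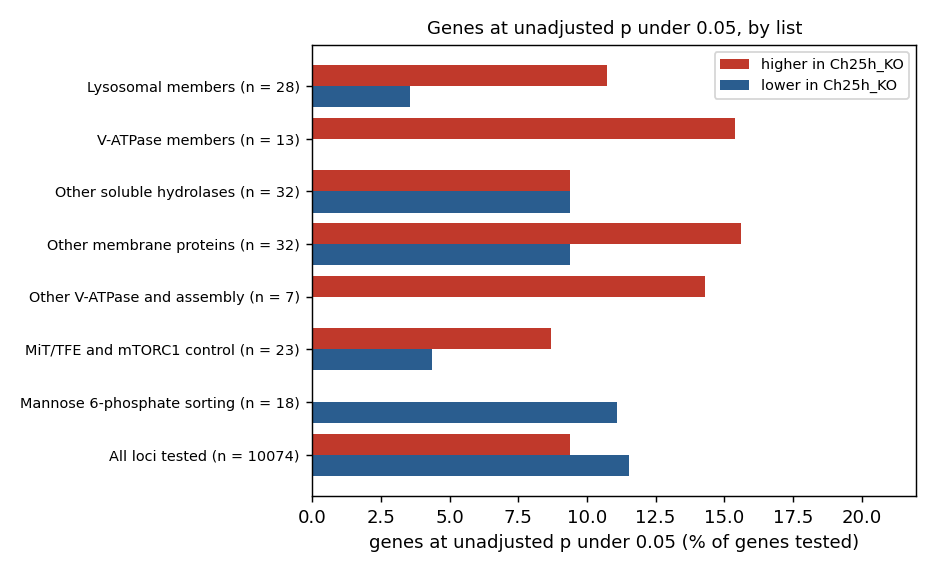
Share of tested genes at unadjusted p under 0.05 with limma, in percent, higher (red) or lower (blue) in Ch25h_KO, for the members, the 5 other lysosomal lists and all 10074 loci. Counts behind the bars are small, from 0 to 5 genes per bar in the lists, against 945 higher and 1162 lower among all loci.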

How the data were processed

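RNA-seq values of 4 libraries were taken from 1 table of the whole series. Per the submitters' processing notes, bcl2fastq, TopHat2 2.0.14, Cufflinks 2.2.1 and build mm9 were used, with settings, annotation and strandedness not given in the sources used here. Values per locus, as deposited by the authors, fit FPKM by range and Cufflinks-type identifiers. The header names no unit. The table's 24192 lines were joined into 23735 loci, 340 of them with more than 1 symbol. Relative depth was the most common ratio to Ch25h_WT replicate 1 among 1574 loci under 0.5 FPKM. The absolute depth is unknown.

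Differences were tested with limma 3.58.1 (R 4.3.3) on log2(FPKM + 1), which understates the change of low genes, for the 10074 loci whose mean reached 1 FPKM. Genotype was the only term, and p-values were adjusted by Benjamini-Hochberg over all these loci (threshold 0.05). Intervals are 95% intervals from limma. Ratios are of mean FPKM. The test was checked on simulated data. All 42 members are named. Of the 5 other lists, genes with the smallest unadjusted p under 0.05 are named, at most 2 per direction (1 such gene is not reported here), and others named (Tcirg1, Atp6ap2, Tfe3, Mitf, M6pr, and forms listed at 0) were chosen after their values were seen. Members and lists were chosen with earlier results of these data known. Alternatives changed the pseudocount, filter, scaling, spread model, replicate block and libraries.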

Additional observations from a re-analysis of the deposited data

How the results depend on the processing

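Under the 11 alternatives, 0 members passed with limma except with its trend and robust options, where 1 of the 28 enzymes and membrane proteins (Psap) and 1 of the V-ATPase subunits (Atp6v1f) passed, together with 13 genes of the other lysosomal lists and 786 loci in all. The count of all loci, 44 as reported, was also 18 with no filter on low values, 175 with a mean of at least 5 FPKM and 16 to 21 with a library left out, where a lone library is assumed to vary like the others. Changes were as reported for sign in 27 of 41 members under every alternative that tested them (Arsb, Ids and Sgsh were not tested with a mean of at least 5 FPKM). The other 14 had small values. The median log2 change was 0.043 for enzymes and membrane proteins and 0.052 for V-ATPase subunits after median ratio scaling, and 0.0030 and 0.010 after scaling to the total FPKM without Saa3. With a library left out it ran from 0.016 to 0.032 for enzymes and membrane proteins and from 0.035 to 0.046 for V-ATPase subunits. The cause of these shifts was not tested.

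With the replicate number as a block, 6 loci and 0 members passed. The numbers were not taken to pair libraries, because the labels name no shared batch. Deviations of same-numbered libraries correlated at 0.012 across loci, which cannot decide whether libraries were paired.

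Signs turned, in log2 change, after median ratio scaling for Gusb (0.0038), Grn (0.0067) and Atp6v0b (0.012). After scaling to the total FPKM without Saa3 they turned for Asah1 (-0.0023), Lamp2 (-0.0060), Tfeb (-0.016), Atp6v0c (-0.024), Atp6v0d1 (-0.011) and Atp6v1c1 (-0.025). With a library left out the range was -0.024 to 0.14 for Idua, -0.10 to 0.014 for Arsa, -0.0038 to 0.050 for Asah1, -0.013 to 0.077 for Smpd1, -0.097 to 0.030 for Ppt1 and -0.029 to 0.0095 for Grn. It was -0.015 to 0.054 for Lamp2, -0.10 to 0.12 for Tfeb, -0.056 to 0.046 for Atp6v0b, -0.0068 to 0.0094 for Atp6v0c, -0.024 to 0.052 for Atp6v0d1, -0.023 to 0.024 for Atp6v1c1 and -0.011 to 0.081 for Atp6v1d. With 2 libraries per group and no absolute depth, changes of this size were not detectable.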

Other observations

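Genes that accompany Atp6v0d2 in osteoclasts and multinucleated macrophages were read from a list of 7, of which 5 were tested. Acp5, the tartrate-resistant acid phosphatase, was 187 and 181 FPKM in Ch25h_KO libraries, against 185 and 182 FPKM in Ch25h_WT libraries. Nfatc1, the transcription factor of osteoclast formation, was 28.7 and 30.5 FPKM in Ch25h_KO libraries, against 24.7 and 24.0 FPKM in Ch25h_WT libraries, and was the single gene of the 5 tested at unadjusted p under 0.05 (limma adjusted p = 0.122), or 20% against 20.9% of all loci. Mmp9, a gelatinase, was 3.38 and 3.56 FPKM in Ch25h_KO libraries, against 2.93 and 3.12 FPKM in Ch25h_WT libraries, with no overlap (limma adjusted p = 0.244). The fusion protein gene Dcstamp was 1.23 and 1.15 FPKM in Ch25h_KO libraries, against 1.03 and 1.10 FPKM in Ch25h_WT libraries. Nfatc1, Mmp9 and Dcstamp, 3 of the 5 tested, lay above without overlap, where 23.4% of all loci did. Ctsk, the collagen-degrading cathepsin, was 1.20 and 0.880 FPKM in Ch25h_KO libraries, against 1.56 and 1.11 FPKM in Ch25h_WT libraries. Ocstamp was 0.0533 FPKM in Ch25h_KO replicate 2 and listed at 0 in the other 3 libraries. Calcr was 0.241 and 0.194 FPKM in Ch25h_KO libraries, against 0.110 and 0.0551 FPKM in Ch25h_WT libraries. Ocstamp and Calcr were under the filter of 1 FPKM and not tested.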
